A study of Mus musculus with 6 samples.

Results

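The 32 genes described here are endoplasmic reticulum folding and stress genes, chosen by name from a list of lumenal chaperones, disulfide and proline isomerases, stress sensors with their transcription factors, targets of the integrated stress response, and degradation factors. All 32 symbols were found among the 43346 genes of the deposited table, and all 32 were among the 17554 genes with enough counts to be tested. The study compared polyadenylated RNA from primary epiphyseal chondrocytes, the cartilage cells of the immature ends of the long bones, of wild-type mice and of Girk3-/- mice that lack the potassium channel subunit Girk3 (gene symbol Kcnj9). Both groups were C57BL/6 mice of 5 days, all labelled male, with 3 libraries per genotype that the series text calls biological replicates. The cells came out of cartilage by digestion with collagenase and were taken overnight through the second digestion before RNA extraction. The labels give neither the allele nor whether animals were pooled, so the p-values below measure the spread between these 6 libraries.

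Secreted proteins fold in the lumen of the endoplasmic reticulum, where chaperones such as Hspa5 (BiP) hold unfolded chains and isomerases set disulfide bonds and proline turns. When unfolded chains accumulate, the sensors Ern1 (IRE1), Eif2ak3 (PERK) and Atf6 raise chaperone and degradation genes through spliced Xbp1, cleaved Atf6 and Atf4. Atf4 is also made under amino acid shortage and other stresses, and its targets include Ddit3 (CHOP), Asns, Trib3 and Chac1. Chondrocytes secrete large amounts of collagen and depend on this machinery, and mutations that trap matrix proteins in the reticulum cause chondrodysplasias.

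The promoters of these genes are shown because several carry the element through which Atf6 and Xbp1 are known to act. Of the 32 genes, 28 matched a RefSeq promoter window (build GRCm38.p6), and the 250 bases before the start were searched on both strands; Hyou1, Fkbp10, Manf and Atf6 had no matched window. The endoplasmic reticulum stress element, CCAAT and CCACG with 9 bases of any kind between them, was present before 8 of the 28 genes (28.6%) and in 37 of all 32851 windows (0.113%). The second form of the element, ATTGG and CCACG with 1 base between them, was found before 1 of the 28 genes, Herpud1, and in 10 of all windows (0.0304%). Capitals mark the match and 5 lower-case bases flank it, each run being written 5′ to 3′ on the strand of its gene, so that a match in the other orientation reads CGTGG first.
Hspa5 (chr2:34772020-34772048, plus strand): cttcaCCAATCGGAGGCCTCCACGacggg
Hsp90b1, farther copy (chr10:86705633-86705661, minus strand): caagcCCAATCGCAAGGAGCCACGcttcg
Hsp90b1, nearer copy (chr10:86705528-86705556, minus strand): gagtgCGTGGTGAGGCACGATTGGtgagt
Calr (chr8:84847070-84847098, minus strand): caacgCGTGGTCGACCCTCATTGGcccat
Canx (chr11:50325795-50325823, minus strand): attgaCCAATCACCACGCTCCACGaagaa
Dnajc3 (chr14:118937822-118937850, plus strand): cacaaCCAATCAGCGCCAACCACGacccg
Pdia6 (chr12:17266486-17266514, plus strand): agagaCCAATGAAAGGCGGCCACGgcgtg
Creld2 (chr15:88819515-88819543, plus strand): cttctCGTGGCGAGCCTCAATTGGtccac
Syvn1 (chr19:6046527-6046555, plus strand): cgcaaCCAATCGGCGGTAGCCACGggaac
Herpud1, second form (chr8:94386372-94386392, plus strand): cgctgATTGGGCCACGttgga

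The matches began between 44 bases (Syvn1) and 212 bases (the farther copy of Hsp90b1) before the RefSeq start. Hsp90b1, which encodes the lumenal chaperone GRP94, was the gene of the list with 2 copies, in opposite orientations. The stretch that holds both, from 250 to 66 bases before its start, is given whole, with the 2 elements in capitals.
Hsp90b1 (chr10:86705510-86705694, minus strand): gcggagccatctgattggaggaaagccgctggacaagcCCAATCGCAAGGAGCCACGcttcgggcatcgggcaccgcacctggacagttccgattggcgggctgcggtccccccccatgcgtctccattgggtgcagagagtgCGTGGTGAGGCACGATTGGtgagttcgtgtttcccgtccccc

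The core of the C/EBP-ATF response element, TGATGNAA, through which Atf4 is known to act, was present before 3 of the 28 genes (10.7%) against 3.45% of all windows. Its 3 carriers are given with the core in capitals, which reads TTGCATCA where it lies in the other orientation.
Asns (chr6:7693220-7693237, minus strand): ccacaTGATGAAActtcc
Chac1 (chr2:119351044-119351061, plus strand): tgccgTTGCATCActcct
Herpud1 (chr8:94386312-94386329, plus strand): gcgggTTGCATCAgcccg

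The core of the unfolded protein response element, TGACGTGG, was in none of the 28 windows and in 0.563% of all windows. The Hspa5 and Asns matches lie inside the gene span of the deposited table, upstream of the RefSeq start but in an annotated exon. Such a match describes the letters of the window and is no evidence of binding in these cells. The 9 genes with either form of the stress element had a median of 126 RPKM, reads scaled to gene length and to the reads counted in the library. The 19 with a window but neither form had a median of 27.4 RPKM. The ranges of the gene means overlapped, from 16.5 to 535 RPKM with the element and from 11.9 to 868 RPKM without it. The genotype difference did not separate the same sets: the median log2 fold change, Girk3-null over wild type, was -0.11 with the element (4 genes above 0, 5 below) and -0.10 without it (7 above, 12 below).

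The libraries held between 34279516 and 60392837 counts over genes, and 3 counts corresponded to 0.0497 to 0.0875 CPM, the usual unit of a count relative to its library total. Kcnj9 had 0 counts in all 6 libraries, wild type included, so its RNA could not check the genotype labels at this depth. All 6 libraries were labelled male, but 5 had under 10 counts over 4 Y-linked genes together; Girk3-null 1 had 16088 such counts and was the library that stood apart. Xist, the RNA of the inactive X chromosome in female cells, had 19 counts in Girk3-null 1 and 67346 to 144825 in the other 5, which goes against their label. All 16 chondrocyte markers were detected, and Col2a1, the main cartilage collagen, ran from 5196 to 8887 RPKM in wild type and from 8392 to 13737 in Girk3-null libraries. The sample titles carry a number that is below 200 for wild type 1, wild type 2 and Girk3-null 1, and above 200 for the other 3 libraries. The labels do not say what that number means. Values without Girk3-null 1 or within each range of title numbers are therefore given beside many of the results.

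The folding machinery was abundant in these cells. Together the 32 genes took 1.33%, 1.58% and 1.18% of all counts in wild type 1 to 3 and 1.05%, 1.28% and 1.18% in Girk3-null 1 to 3, so the ranges of the genotypes overlapped. By mean RPKM over the 6 libraries the highest was P4hb, at 868, the disulfide isomerase that is also a subunit of collagen prolyl hydroxylase. The lumenal chaperones Hspa5 and Hsp90b1 followed at 535 and 440.3 RPKM. Atf4 at 350.0 RPKM was the highest of the transcription factors and stood above Calr (249), Pdia3 (189), Canx (134), Pdia6 (126), Pdia4 (123), Fkbp10 (118) and Herpud1 (101). Below them came Asns (63.6), Xbp1 (51.8), Creld2 (41.4), Creb3l2 (40.6), Dnajb9 (36.1), Ddit3 (35.6), Hyou1 (29.3), Manf (27.7), Trib3 (27.4), Dnajc3 (24.4), Edem1 (24), Sel1l (21.7) and Dnajb11 (21.4). The lowest were Sesn2 (19.5), Pdia5 (17.2), Ern1 (17.0), Syvn1 (16.5), Chac1 (16.2), Eif2ak3 (16.0), Sdf2l1 (11.9) and Atf6 (9.0). The 3 sensor genes thus lay far below Hspa5 and Hsp90b1 per unit of length, but Ern1 and Eif2ak3 were above the least abundant chaperone gene, Sdf2l1. Even Atf6 was above 69.5% of the genes tested by RPKM, and P4hb was above 99.8%.

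**Figure D1:**
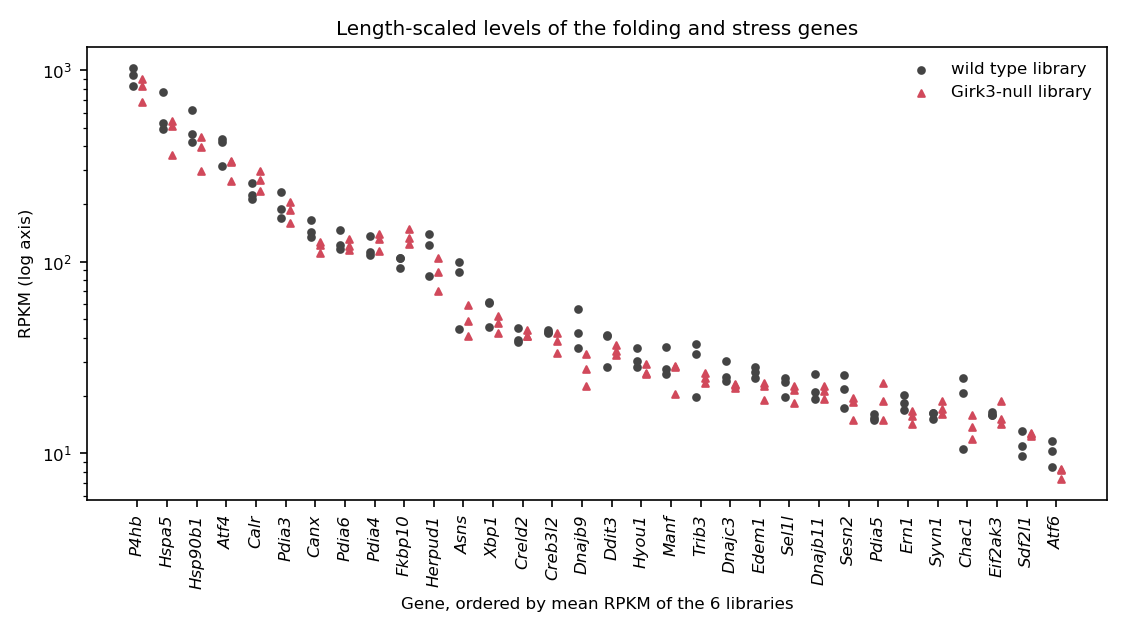
Level of each gene in RPKM on a log axis, 1 point per library, wild type as dark circles and Girk3-null as red triangles, genes ordered by their mean. The genes span from P4hb, at a mean of 868, to Atf6, at 9.0, and the lowest point of Hspa5, Hsp90b1 and Dnajb9 is a Girk3-null library.

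Between genotypes, none of the 32 genes passed edgeR's quasi-likelihood test at a Benjamini-Hochberg adjusted p of 0.05, and the smallest adjusted p among them was 0.291. Over all genes tested, 0.0057% passed. DESeq2 called 1 of the 32, Fkbp10 (adjusted p = 0.0165), against 1.93% of all genes. At an unadjusted p under 0.05 in edgeR, 3 of the 32 (9.38%) were higher in Girk3-null libraries, against 7.49% of all genes, namely Calr, Pdia5 and Fkbp10. By the same threshold 2 of the 32 (6.25%) were lower, against 7.02% of all genes, namely Dnajb9 and Atf6. These shares lie near those of all genes.

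The groups did not overlap, with all 3 Girk3-null libraries above all 3 wild-type ones, for Sdf2l1, Calr, Pdia5, Creld2 and Fkbp10. These 5 of 32 (15.6%) compare with 9.86% of all genes. The groups were apart in the other direction for Dnajb9, Atf6 and Edem1, 3 of 32 (9.38%) against 10.2% of all genes. These counts hold for CPM scaled between libraries. On the deposited RPKM, which carry no scaling factor, Fkbp10 was the 1 gene apart upward (3.13%, against 5.9% of all genes), and 7 were apart downward (21.9%, against 15.4% of all genes), namely Dnajb9, Dnajc3, Canx, Ern1, Atf6, Creb3l2 and Edem1. The median log2 fold change of the 32 genes was -0.10, with 12 above 0 and 20 below, and that of all genes was 0.01, with 51.8% above 0. Without Girk3-null 1 the median of the 32 was -0.06. Scaling by library totals alone moved the median of all genes to -0.09 and that of the 32 to -0.21, with 8 above 0 and 24 below; relative to all genes the median was -0.11 with the main scaling and -0.12 with library totals. Of the 32 fold changes, 21 exceeded their own standard error.

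**Figure D2:**
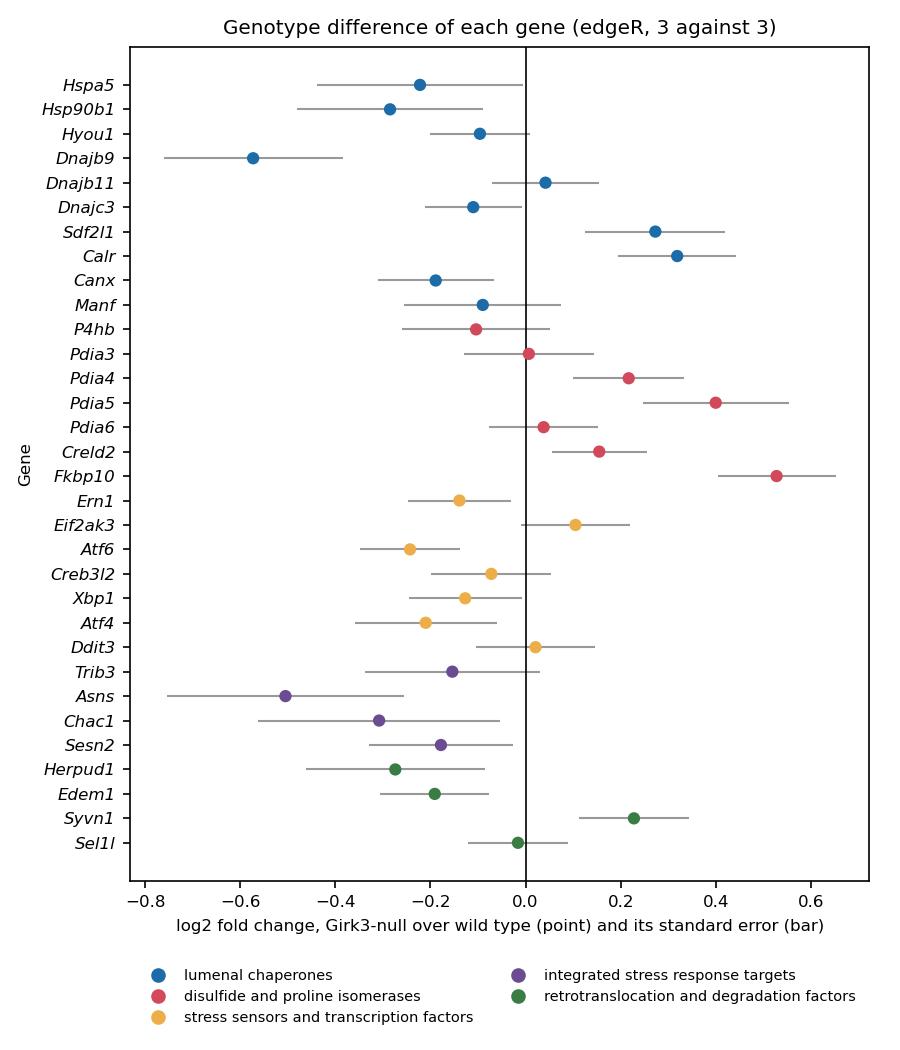
Log2 fold change of each gene, Girk3-null over wild type (point), with its standard error from edgeR (bar), coloured by role, for 3 against 3 libraries. The isomerases Fkbp10 and Pdia5 and the chaperone Calr lie farthest to the right, Dnajb9 and Asns farthest to the left, and none passed at an adjusted p of 0.05.

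Single libraries stood out in the chaperones, across both genotypes. Wild type 2 was the highest of the 6 libraries for 17 of the 32 genes (53.1%, against 21.2% of all genes tested) and for 8 of the 10 chaperones. Girk3-null 1 was the lowest for 15 of the 32 (46.9%, against 25.3% of all genes) and for 7 of the 10 chaperones. Some markers of other cell types were high or low in the same libraries. Summed over 12 endothelial markers, wild type held 199, 251 and 159 CPM and the Girk3-null libraries 44.5, 116 and 133 CPM. Of 12 erythroid markers 11 were found, with sums of 213, 279 and 78.8 CPM in wild type and 56.3, 159.98 and 90.3 CPM in Girk3-null libraries. No library had any of the 12 endothelial markers or the 11 erythroid markers at 0. Sums over other lists ran differently. That of 10 neutrophil and granulocyte markers was lowest in wild type 2 (984 CPM) and highest in Girk3-null 1 (3044 CPM). Those of macrophage and of fibroblast and perichondrium markers were highest in Girk3-null 1 (228 and 9107 CPM). Averaged per gene, as log2 CPM minus the gene's own mean, the same lists did not keep this order. Neutrophil and granulocyte markers stood at 0.27 in wild type 2 and -0.11 in Girk3-null 1. Macrophage markers stood at 0.33 and -0.12 in those libraries, and fibroblast and perichondrium markers at 0.39 and -0.03. In such bulk samples fewer cells of a type and less RNA per cell cannot be told apart.

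**Figure D3:**
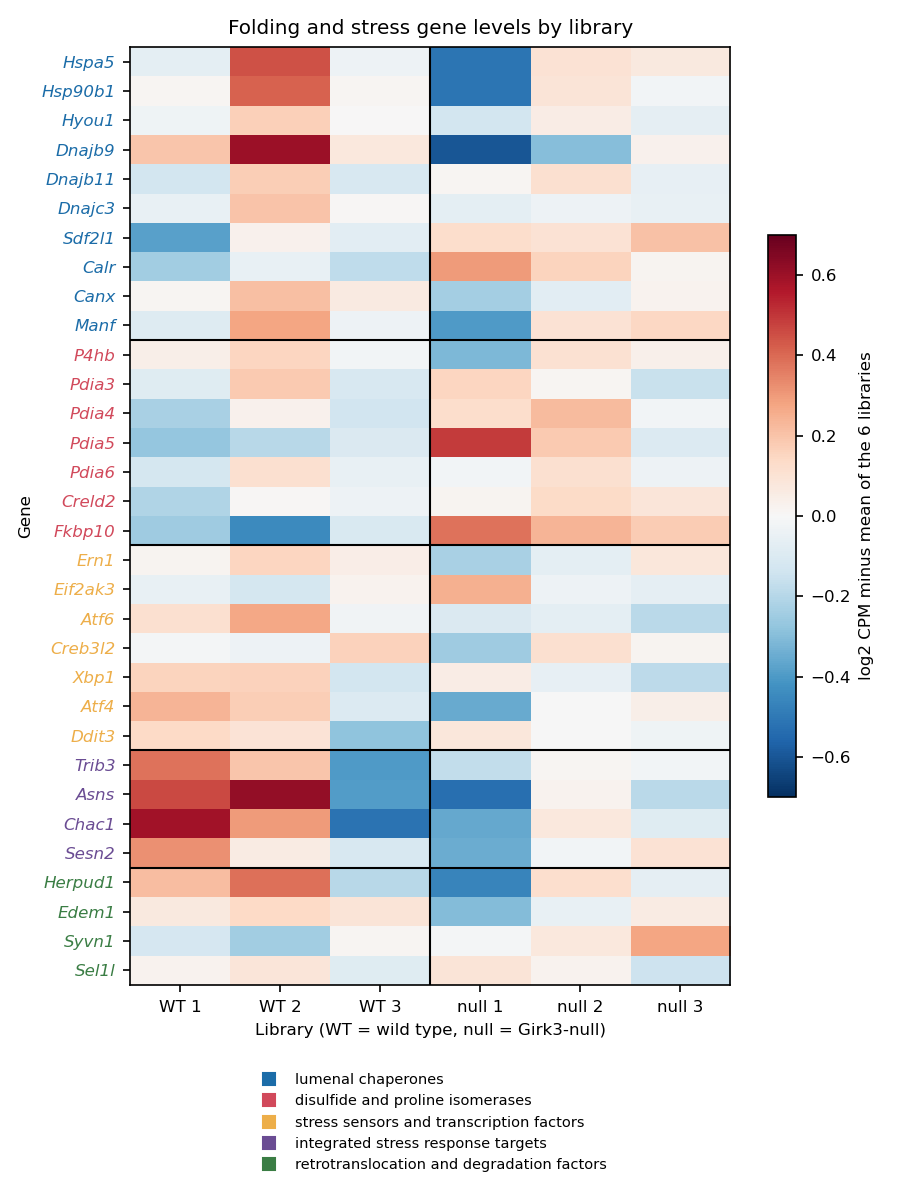
Deviation of each gene in each library from its own mean over the 6 libraries (log2 CPM, blue below and red above), genes grouped by role. The column of wild type 2 is above the mean for most chaperones, that of Girk3-null 1 is below it for most of them and above it for Calr, Pdia5 and Fkbp10.

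Among the 10 chaperones and their partners, 3 log2 fold changes were above 0 and 7 below, and their median was -0.10 (-0.05 without Girk3-null 1). Hspa5 was measured at 2109.6, 3013 and 2154 CPM in wild type 1 to 3 and at 1550.5, 2371 and 2319 CPM in Girk3-null 1 to 3. The highest value was that of wild type 2 and the lowest that of Girk3-null 1. Between them, Girk3-null 2 and 3 both lay above wild type 1 and 3, against the sign of the fold change. The log2 fold change of Hspa5 was -0.22 ± 0.22 (SE; edgeR adjusted p = 0.634), and it was -0.05 without Girk3-null 1 and -0.04 without wild type 2. Hsp90b1, its partner chaperone, had the same highest 2 libraries and the same lowest one, with 1754, 2309 and 1752 CPM in wild type and 1216, 1847 and 1712 CPM in Girk3-null libraries. Its log2 fold change was -0.28 ± 0.20 (SE; edgeR adjusted p = 0.495), and -0.12 without Girk3-null 1. Within the libraries with title numbers below 200, the difference of Hspa5, Girk3-null minus wild type in log2 CPM, was -0.70, and above 200 it was 0.12. Hsp90b1 gave differences of -0.73 and 0.02 in those ranges.

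Dnajb9 (chr12:44205897-44210068, mm10), the co-chaperone ERdj4 whose transcription depends on spliced Xbp1, had the lowest fold change of the 32. It was measured at 73.8, 97.5 and 67.9 CPM in wild type and at 42.5, 52.5 and 65.9 CPM in Girk3-null libraries. The groups did not overlap, but Girk3-null 3 was close below wild type 3. Its log2 fold change was -0.57 ± 0.19 (SE; edgeR adjusted p = 0.291), and the adjusted p ran from 0.113 to 0.814 over 15 other settings. It was -0.43 without Girk3-null 1, and Dnajb9 was lower in Girk3-null libraries in both ranges of title numbers, with differences of -0.996 and -0.21 in log2 CPM.

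Calr and Canx, the soluble and the membrane-bound lectin chaperones that hold newly made glycoproteins, stood on opposite sides. Calr (chr8:84841850-84846934) was measured at 603, 686 and 629 CPM in wild type and at 876, 794 and 723 CPM in Girk3-null libraries, so all 3 null values were above all wild-type values. Its log2 fold change was 0.32 ± 0.12 (SE; edgeR adjusted p = 0.312), a ratio of means of 1.25. Canx was measured at 629, 720.3 and 649 CPM in wild type and at 528, 591 and 633 CPM in Girk3-null libraries. Here Girk3-null 3 overlapped the wild-type range, and the log2 fold change was -0.19 ± 0.12 (SE; edgeR adjusted p = 0.471), or -0.12 without Girk3-null 1. Both genes carry a single stress element in the windows printed above, in opposite orientations. Whether orientation bears on the fold change was not tested.

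Sdf2l1, a partner of Hspa5 and of the co-chaperone Dnajb11, was measured at 10.04, 13.4 and 12.4 CPM in wild type and at 14.2, 14.0 and 15.1 CPM in Girk3-null libraries. The groups did not overlap, and the log2 fold change was 0.27 ± 0.15 (SE; edgeR adjusted p = 0.399). The other 4 chaperone genes had log2 fold changes close to their standard errors or below them. Hyou1, the exchange factor of Hspa5, had -0.10 ± 0.11 (SE; -0.05 without Girk3-null 1) and Dnajc3, the co-chaperone p58IPK, had -0.11 ± 0.10. Manf, a lumenal trophic factor that binds Hspa5, had -0.09 ± 0.17, and Dnajb11, the co-chaperone ERdj3, had 0.04 ± 0.11. Manf, unlike the others of these 4, changed sign without Girk3-null 1 (0.07), and its difference was -0.49 in log2 CPM in title numbers below 200 and 0.16 above. Manf shares 146 exonic bases with Vprbp on the opposite strand, and because no source used here states the strand setting of the counting, its counts are uncertain to that extent.

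Of the 7 isomerases, 6 had a log2 fold change above 0, with a median of 0.15 (0.19 without Girk3-null 1), and 0 of 7 passed at an adjusted p of 0.05 in edgeR. Their mean deviation per library did not overlap between genotypes. That mean, in log2 CPM from each gene's own mean, was -0.16, -0.02 and -0.08 in wild type 1 to 3 and 0.12, 0.15 and -0.002 in Girk3-null 1 to 3. The distance between wild type 2 and Girk3-null 3 was small, and these means use CPM scaled between libraries. On the deposited RPKM, Fkbp10 was the 1 isomerase with groups apart upward. With library totals as the scaling 4 of the 7 were above 0, and their median was 0.05, against -0.09 for all genes. Without wild type 1, 4 of the 7 were above 0 as well, with a median of 0.09.

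Fkbp10 (chr11:100415697-100424824), the proline isomerase FKBP65 that assists procollagen, had the highest fold change of the 32 genes. It was measured at 288, 251 and 317 CPM in wild type and at 445, 403 and 386 CPM in Girk3-null libraries. The lowest null value was above the highest wild-type value, and the means were 285 ± 33.1 and 412 ± 30.4 CPM (SD, n = 3 each). On the log2 scale the fold change was 0.53 ± 0.12 (SE; edgeR adjusted p = 0.291, DESeq2 adjusted p = 0.0165), it was 0.47 without Girk3-null 1, and the adjusted p ran from 0.0165 to 0.814 over 15 other settings. Within title numbers below and above 200 the difference was 0.73 and 0.32. Fkbp10 shares 193 exonic bases, 6.58% of its exonic length, with Nt5c3b on the opposite strand, whose counts came to 6.91% of those of Fkbp10.

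Pdia5 (chr16:35397313-35490873), a less abundant disulfide isomerase, was measured at 25.4, 26.8 and 28.6 CPM in wild type and at 43.0, 34.8 and 28.6 CPM in Girk3-null libraries. Girk3-null 1 was the highest, and Girk3-null 3 was above wild type 3 by less than this rounding shows, so the groups were barely apart. The log2 fold change was 0.40 ± 0.15 (SE; edgeR adjusted p = 0.308), and 0.24 without Girk3-null 1. Pdia4, the disulfide isomerase ERp72, was measured at 260.4, 312 and 278 CPM in wild type and at 332, 356 and 301 CPM in Girk3-null libraries. Wild type 2 overlapped the null range, and the log2 fold change was 0.22 ± 0.12 (SE; edgeR adjusted p = 0.400).

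Creld2, a stress-inducible lumenal protein with disulfide isomerase activity, was measured at 48.8, 56.8 and 55.1 CPM in wild type and at 57.1, 62.0 and 59.9 CPM in Girk3-null libraries. The groups did not overlap, though wild type 2 and Girk3-null 1 nearly met, and the log2 fold change was 0.15 ± 0.10 (SE; edgeR adjusted p = 0.473). P4hb, the most abundant gene of the list, was the single isomerase with a negative log2 fold change, -0.10 ± 0.16 (SE), and it was 0.01 without Girk3-null 1. Pdia3 (ERp57), which works with Calr and Canx, had 0.01 ± 0.14, and Pdia6, which acts on the sensors Ern1 and Eif2ak3, had 0.04 ± 0.12. The sign of these last 2 turned in 6 and 5 of the 15 other settings.

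The stress sensors and their transcription factors split into 2 log2 fold changes above 0 and 5 below, around a median of -0.13 (-0.06 without Girk3-null 1). Atf6 (chr1:170704674-170867771), the sensor that is cleaved into a transcription factor, was measured at 88.8, 99.0 and 80.7 CPM in wild type and at 76.5, 78.3 and 72.1 CPM in Girk3-null libraries. All 3 null values were below all wild-type values, by a narrow gap. Its log2 fold change was -0.24 ± 0.11 (SE; edgeR adjusted p = 0.343), -0.25 without Girk3-null 1, and negative in both ranges of title numbers. Ern1, the sensor and nuclease IRE1, was measured at 139.7, 153 and 142 CPM in wild type and at 118, 131 and 146 CPM in Girk3-null libraries. Girk3-null 3 was within the wild-type range, and the log2 fold change was -0.14 ± 0.11 (SE; edgeR adjusted p = 0.551), or -0.06 without Girk3-null 1. Eif2ak3, the kinase PERK, had 0.10 ± 0.11 (SE), which was -0.001 without Girk3-null 1, and Creb3l2, a membrane-bound factor known for its part in cartilage secretion, had -0.07 ± 0.13, which was 0.03 without Girk3-null 1.

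Xbp1, whose RNA is spliced by Ern1, was measured at 186, 186 and 153 CPM in wild type and at 173, 160.4 and 147 CPM in Girk3-null libraries. The ranges overlapped, and the log2 fold change was -0.13 ± 0.12 (SE; edgeR adjusted p = 0.618), or -0.07 without Girk3-null 3 and -0.21 without wild type 3. The gene counts do not separate its spliced and unspliced forms. Atf4 was measured at 703, 671 and 558 CPM in wild type and at 466, 593 and 612 CPM in Girk3-null libraries. Girk3-null 1 was the lowest and wild type 3 the next, and the log2 fold change was -0.21 ± 0.15 (SE; edgeR adjusted p = 0.508), or -0.10 without Girk3-null 1. The difference of Atf4 was -0.56 in log2 CPM in title numbers below 200 and 0.11 above. Ddit3, the factor CHOP that Atf4 induces, was measured at 66.7, 64.6 and 49.9 CPM in wild type and at 64.0, 60.5 and 59.4 CPM in Girk3-null libraries. The null values lay inside the wild-type range, with a log2 fold change of 0.02 ± 0.13 (SE; edgeR adjusted p = 0.953). Ddit3 shares 68 exonic bases with Mars on the opposite strand, a gene with 172% of its counts, so its values are uncertain without the strand setting. Among the others, Syvn1 shares 91 exonic bases with Mrpl49 on the opposite strand, and Hsp90b1 shares 84 with the non-coding Gm15344, whose counts came to 3.10% of its own.

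The 4 targets of the integrated stress response all lay below 0 in log2 fold change, around a median of -0.24, and none had groups apart. That median was -0.15 without Girk3-null 1, -0.06 without wild type 1 and -0.45 without wild type 3. Asns, the asparagine synthetase that Atf4 induces, was measured at 226, 251 and 125 CPM in wild type and at 114, 167 and 144 CPM in Girk3-null libraries. Wild type 1 and 2 were the highest, while wild type 3 lay inside the null range. For Asns the log2 fold change was -0.51 ± 0.25 (SE; edgeR adjusted p = 0.372), and it was -0.75 without wild type 3 and -0.31 without wild type 2. Chac1, which degrades glutathione, was measured at 38.1, 31.2 and 17.7 CPM in wild type and at 19.8, 26.7 and 23.9 CPM in Girk3-null libraries. Here wild type 3 was the lowest of all 6, and the log2 fold change was -0.31 ± 0.26 (SE; edgeR adjusted p = 0.570) with all libraries, -0.56 without wild type 3, -0.20 without Girk3-null 1 and -0.06 without wild type 1.

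Trib3, a pseudokinase that restrains Atf4, was measured at 74.2, 65.2 and 43.2 CPM in wild type and at 50.5, 57.6 and 56.1 CPM in Girk3-null libraries. Its log2 fold change was -0.15 ± 0.18 (SE; edgeR adjusted p = 0.704), which was -0.35 without wild type 3, -0.10 without Girk3-null 1 and turned to 0.01 without wild type 1. Sesn2, which restrains the growth kinase mTORC1, was measured at 83.7, 69.6 and 62.1 CPM in wild type and at 52.6, 66.2 and 71.8 CPM in Girk3-null libraries. Its log2 fold change was -0.18 ± 0.15 (SE; edgeR adjusted p = 0.583), which was -0.06 without Girk3-null 1, -0.05 without wild type 1 and -0.27 without wild type 3. On average over the 4 genes, wild type 1 and 2 were high and Girk3-null 1 and wild type 3 low: the mean deviations were 0.44, 0.29 and -0.35 log2 CPM in wild type 1 to 3 and -0.35, 0.02 and -0.05 in Girk3-null 1 to 3.

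For all 4 of these targets the direction turned with the title number. In the range below 200, with 2 wild-type libraries and 1 Girk3-null library, the difference was -1.07 for Asns, -0.80 for Chac1, -0.54 for Sesn2 and -0.46 for Trib3 in log2 CPM. In the range above 200, with 1 wild-type library and 2 Girk3-null ones, it was 0.31, 0.51, 0.15 and 0.40 in the same order. Over the 32 genes, 14 (43.8%) were lower in Girk3-null libraries below 200 and higher above it, against 22.0% of all genes tested, and 17 kept 1 direction (53.1%, against 53.5% of all genes). Of the isomerases, 5 of 7 were higher in Girk3-null libraries in both ranges, against 4731 of all 17554 genes tested. The medians of the isomerases were 0.12 below 200 and 0.14 above. The range below 200 rests on Girk3-null 1 alone for its genotype, so the title number, that library and its Y-linked counts cannot be told apart.

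**Figure D4:**
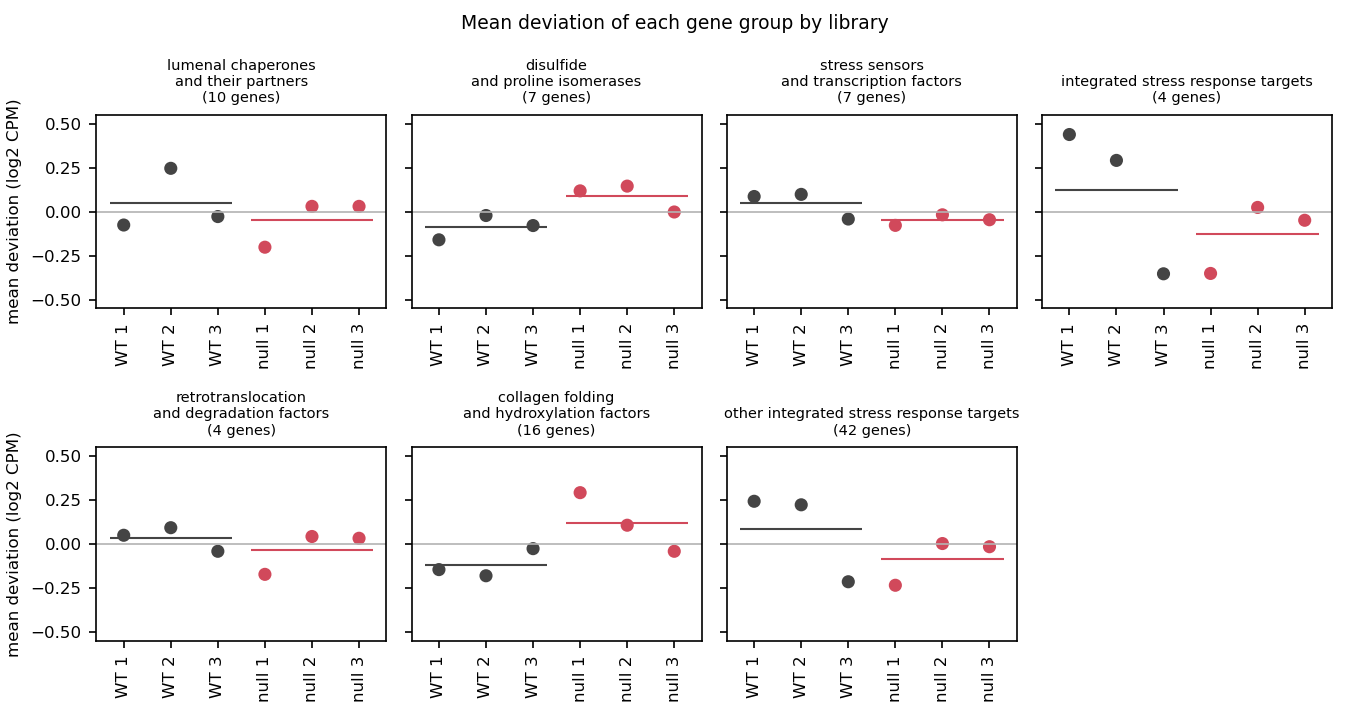
Mean deviation of each group of genes in each library from the genes' own means (log2 CPM), wild type in dark grey and Girk3-null in red, horizontal lines marking the mean of each genotype's 3 libraries. With CPM scaled between libraries, the isomerases are apart between genotypes by a small distance, from -0.02 in wild type 2 to -0.002 in Girk3-null 3. The 4 stress response targets split wild type 1 and 2 from wild type 3, as the 42 other targets do.

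Of the 4 degradation factors, 1 was above 0 and 3 below, with a median log2 fold change of -0.10 (-0.08 without Girk3-null 1). Herpud1, a scaffold of the retrotranslocation complex and the 1 gene here with both the second form of the stress element and the C/EBP-ATF core, was measured at 267, 301 and 201 CPM in wild type and at 167, 249 and 220.3 CPM in Girk3-null libraries. Its order of libraries was that of Asns, with wild type 3 inside the null range. The log2 fold change of Herpud1 was -0.27 ± 0.19 (SE; edgeR adjusted p = 0.493), -0.42 without wild type 3 and -0.13 without Girk3-null 1, and its difference was -0.77 in log2 CPM in title numbers below 200 and 0.22 above. Edem1, which marks misfolded glycoproteins for removal, was measured at 147, 154 and 149 CPM in wild type and at 113, 135 and 145 CPM in Girk3-null libraries. The wild-type libraries lay close together and above all 3 null values, and the log2 fold change was -0.19 ± 0.12 (SE; edgeR adjusted p = 0.442), or -0.09 without Girk3-null 1.

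Syvn1, the ubiquitin ligase HRD1 of the retrotranslocation complex, was measured at 72.7, 66.6 and 79.6 CPM in wild type and at 78.1, 83.0 and 95.3 CPM in Girk3-null libraries. Girk3-null 1 was below wild type 3, and the log2 fold change was 0.23 ± 0.12 (SE; edgeR adjusted p = 0.378), or 0.29 without Girk3-null 1. Sel1l, the adaptor of Syvn1, was measured at 188, 196 and 174 CPM in wild type and at 197, 188 and 167 CPM in Girk3-null libraries. Its groups overlapped almost fully, with a log2 fold change of -0.02 ± 0.11 (SE; edgeR adjusted p = 0.957). The ligase and its adaptor therefore differed in sign, and the difference between their fold changes was not tested.

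Other genes of the same pathways, from lists chosen with earlier results of these data known, were read from the same fit, and none passed edgeR's adjusted p of 0.05. Of 16 genes for collagen folding and hydroxylation, which work beside Fkbp10 and P4hb, 14 were above 0 and 2 below, with a median log2 fold change of 0.30 (0.11 without Girk3-null 1). At an unadjusted p under 0.05, 5 of the 16 were higher (7.49% of all genes) and 0 lower (7.02% of all genes). Leprel2, a collagen prolyl 3-hydroxylase family member, was measured at 82.4, 75.6 and 84.0 CPM in wild type and at 112, 108 and 106 CPM in Girk3-null libraries, and DESeq2 called it (adjusted p = 0.0145; edgeR adjusted p = 0.291). Its relatives Lepre1 and Leprel4 had log2 fold changes of 0.39 and 0.47, and their partner Crtap had 0.39, all with groups that did not overlap. Leprel2 and these genes were named for the smallest p of the list, so groups without overlap follow in part from that choice. Of the 16, 5 had groups apart upward (9.86% of all genes) and 0 had groups apart downward (10.2% of all genes).

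Of 42 tested genes among 44 other lumenal folding factors, 31 were above 0 and 11 below, with a median of 0.14 (0.04 without Girk3-null 1). Girk3-null 1 was the highest library for 26 of the 42 (27.8% of all genes). At an unadjusted p under 0.05, 4 of the 42 were higher and 2 lower, against the same 7.49% and 7.02%. Sil1, an exchange factor of Hspa5, had 0.59 and was called by DESeq2 (adjusted p = 0.0130; edgeR adjusted p = 0.291). Cnpy3 had 0.52, Hspa13 had -0.40 and Tmx4, a membrane-bound thioredoxin, had -0.30.

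Of 42 other targets of the integrated stress response, 8 were above 0 and 34 below, with a median log2 fold change of -0.22 (-0.18 without Girk3-null 1). At an unadjusted p under 0.05, 3 of the 42 were higher and 6 lower, against 7.49% and 7.02% of all genes. Wild type 1 and wild type 2 were each the highest library for 16 of the 42 (12.3% and 21.2% of all genes), and Girk3-null 1 was the lowest for 25 (25.3% of all genes), as it was for Asns and Herpud1. Slc7a11, the cystine transporter, had -0.73 and was called by DESeq2 (adjusted p = 0.0268; edgeR adjusted p = 0.291). Psat1, of serine synthesis, had -0.94, Cebpg, a partner of Atf4, had -0.42 and Gdf15, a secreted stress cytokine, had 0.96.

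The remaining lists were divided, and their counts at an unadjusted p under 0.05 are to be read against the same shares of all genes. Of 28 other degradation factors 9 were above 0 and 19 below (median -0.05), with 1 higher and 1 lower at an unadjusted p under 0.05. The lectin Os9 had a log2 fold change of 0.57, the ubiquitin ligase Rnf139 had -0.61, Aup1 had 0.24 and Dnajb2 had 0.26. Of 33 genes for translocation and glycosylation 16 were above 0 and 17 below (median -0.002), with 3 higher and 1 lower. Krtcap2, a subunit of the oligosaccharyltransferase, had 0.45 and was called by DESeq2 (adjusted p = 0.0486; edgeR adjusted p = 0.291). The translocon subunit Sec61b had 0.40, the oligosaccharyltransferase subunit Rpn2 had 0.31 and the signal peptidase subunit Spcs3 had -0.32. Of 21 tested genes among 22 other sensors and translation control genes 10 were above 0 and 11 below (median -0.001), with 2 higher and 3 lower. Atf6b, the relative of Atf6, had 0.42 and Creb3l1, the relative of Creb3l2, had 0.44. Eif2s1, the initiation factor subunit that Eif2ak3 phosphorylates, had -0.48, and Ppp1r15b, which directs its dephosphorylation, had -0.44.

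Markers of maturation and of other cells were read beside these groups. The median log2 fold change was 0.57 for 16 chondrocyte markers, 0.68 for 10 hypertrophic chondrocyte markers and 0.56 for 9 tested osteoblast markers. Single genes ran from -0.13 to 1.27, from -0.29 to 1.48 and from -1.43 to 1.87 in that order. Of them 14, 9 and 7 were above 0 and 2, 1 and 2 below. The hypertrophic marker Col10a1 had 836, 706 and 1070 RPKM in wild type and 306, 726 and 958 RPKM in Girk3-null libraries. Endothelial markers had a median of -1.12 (12 genes), skeletal muscle markers one of -1.25 (12 genes) and the 10 tested erythroid markers one of -1.18. Fibroblast and perichondrium markers had -0.20, macrophage -0.36, Schwann cell -0.50, osteoclast 0.04, neutrophil and granulocyte -0.001, and B lineage and plasma cell markers 0.09. The 2 tested adipocyte markers of 6 had a median of 0.38, and 1 adipocyte marker was at 0 in every library. Without Girk3-null 1 the median turned sign for adipocyte (-0.36), osteoclast (-0.09) and neutrophil and granulocyte markers (0.02), was 0.37 for B lineage and plasma cell markers, -0.75 for endothelial and -0.80 for erythroid markers. For 15 genes of dividing cells the median was -0.91, with all 15 below 0, and their summed level was 502, 525 and 307 CPM in wild type and 199, 242.6 and 247 CPM in Girk3-null libraries. For 16 chondrocyte markers the sums were 69770.1, 53718 and 89322 CPM in wild type and 82602, 116420.0 and 130866 CPM in Girk3-null libraries. Chondrocyte markers were highest in Girk3-null 2 and 3, whereas the mean deviation of the isomerases was highest in Girk3-null 1 and 2. That of the 10 hypertrophic chondrocyte markers was also highest in Girk3-null 1 and 2. It was 0.45, 0.39 and 0.22 log2 CPM in Girk3-null 1 to 3 and -0.35, -0.58 and -0.135 in wild type 1 to 3. The part of any marker list in the levels of the folding genes was not tested.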

How the data were processed

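RNA of 6 libraries, 3 wild-type and 3 Girk3-/-, was measured by polyadenylated RNA sequencing (TruSeq kits on an Illumina sequencer, per the labels' protocols). The authors deposited 1 table with a whole-number count and an RPKM value per gene and library, per the file headers. The submitters' processing notes name bcl2fastq 2.19.0, STAR 2.5.2b and the build mm10; for the counting tool, annotation and strand setting, not given in the sources used here, no assumption was made. The deposited RPKM values were recomputed from the counts, library totals and gene lengths plus 1 of the table, and 100% matched within a relative 1e-06. No mitochondrial gene of 37 had counts in any library.

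Counts were fitted over all genes with edgeR 4.0.16 in R 4.3.3 (filterByExpr with a minimum count of 10 and total of 15, TMM factors, quasi-likelihood test, Benjamini-Hochberg over 17554 genes, threshold 0.05); 15997 genes had 0 counts everywhere. Standard errors are the log2 fold change divided by the root of the F statistic, CPM values are scaled by TMM, and deviations use log2 CPM with a prior count of 2. The biological coefficient of variation was 0.206. The fit was tested on simulated data. Counting intervals at this depth are narrower than the spread between libraries.

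Alternatives were RLE factors, library totals, DESeq2 1.42.0, limma 3.58.1 with voom, low-count filters, log2(RPKM + 0.1) and log2(RPKM + 1), the title number as a covariate, and each library left out. The genes and lists were chosen with earlier results of these data known. All 32 genes are named; values per library are given at least for Hspa5, Xbp1, Atf4, Ddit3 and the 3 smallest p per role, all 4 where a role has 4, and up to 4 genes with the smallest p are named from each other list. Promoter windows came from RefSeq (GRCm38.p6). Differences within title-number ranges, the overlap of groups on RPKM and the ratios under the closing observations were chosen after values were seen. Protein sequences were not used here.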

Additional observations from a re-analysis of the deposited data

How the results depend on the processing

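Over 15 alternative settings (DESeq2 and the RPKM settings change the scaling together with the test), all 480 log2 fold changes of the 32 genes kept their side of the adjusted threshold of 0.05 except 1, Fkbp10 in DESeq2 (adjusted p = 0.0165), and none that exceeded its standard error turned its sign; 10 genes within their standard error did so in 1 to 6 settings. The number of the 32 called was 0 in edgeR and 1 in DESeq2. Over all genes edgeR called 1, DESeq2 339, edgeR with no low-count filter 53, and edgeR with library totals alone, limma-voom, both RPKM settings and the title number covariate 0 each. Leaving out 1 library gave between 0 and 74 called genes, the 74 without wild type 3. The median log2 fold change of the 32 was -0.10, and -0.21 with library totals alone, -0.21 with log2(RPKM + 0.1) and -0.20 with log2(RPKM + 1), each of which carries no scaling factor between libraries; leaving out 1 library gave -0.14 to -0.04. At an unadjusted p under 0.05 in edgeR, 3 of the 32 were higher and 2 lower, but 3 and 6 without wild type 3 (Dnajb9, Atf6, Trib3, Asns, Chac1 and Herpud1 lower), 2 and 1 without Girk3-null 1, 2 and 0 without wild type 2, 1 and 1 without wild type 1 or without Girk3-null 2, 3 and 1 without Girk3-null 3, and 1 and 5 with library totals alone. Over all genes tested the shares were 7.49% higher and 7.02% lower, and 12.3% and 10.8% without wild type 3. With library totals alone they were 4.19% and 13.3%. They were 4.93% and 4.77% without Girk3-null 1, 2.91% and 2.49% without wild type 2, and 3.52% and 3.09% without wild type 1. Without Girk3-null 2 the shares were 7.56% and 5.90%, and without Girk3-null 3 they were 8.07% and 7.81%. No paired analysis was possible because the labels give no replicate numbers that the genotypes share; the numbers here follow the order of deposit. With 3 libraries per genotype, the spread between libraries limits these comparisons more than the depth does.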

Other observations

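Ratios within a library do not depend on the scaling between libraries, and 5 of them were computed from the deposited RPKM values after the values of the genes had been seen. The ratio of Calr to Canx, the soluble to the membrane-bound lectin chaperone, was 1.56, 1.55 and 1.58 in wild type 1 to 3 and 2.704, 2.187 and 1.861 in Girk3-null 1 to 3. The 3 wild-type values lay close together, and all 3 null values were above them. An exact two-sided permutation test gave p = 0.1, the smallest it can give with 3 against 3, and 0.125 after Benjamini-Hochberg adjustment over the 5 ratios. That adjustment does not cover the choice of the pairs from these same values, so no conclusion is drawn from the p-values of the ratios. The ratio of Fkbp10 to P4hb, both of which act on procollagen, was 0.111, 0.0896 and 0.127 in wild type and 0.219, 0.148 and 0.149 in Girk3-null libraries, again with no overlap.

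The ratios of Pdia4 to P4hb (means 0.127 ± 0.00758 in wild type and 0.162 ± 0.0282 in Girk3-null libraries, SD, n = 3 each) and of Atf6 to Calr (means 0.0437 ± 0.00317 and 0.0297 ± 0.00216, SD, n = 3 each) had groups that did not overlap. For Atf6 to Calr this was fixed beforehand, because both genes had groups apart in scaled CPM, in opposite directions, so that ratio adds nothing to them. By contrast, the ratio of Hspa5 to Hsp90b1 ran from 1.15 to 1.29 over all 6 libraries while Hspa5 itself varied by a factor of 1.94, so both chaperones moved together from library to library; its exact permutation p was 0.3. The design cannot reach a p under 0.05 for any of the 5 ratios.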
